A study of Mus musculus with 24 samples.

Results

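Imprinted genes are transcribed mainly from one parental allele, and many of them set the pace of growth in the fetus and fall after birth. In the mouse, paternally expressed genes such as Igf2, Dlk1, Peg3, Plagl1 and Mest are known mostly as promoters of growth, and maternally expressed genes such as H19, Igf2r, Grb10 and Meg3 mostly as brakes on it. Their RNA is found in heart muscle and in the stromal cells around it.

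The 10 genes described here are H19, Igf2, Dlk1, Meg3, Peg3, Plagl1, Mest, Grb10, Igf2r and Ndn. They were taken by symbol as a list of imprinted growth genes, and 1 of them, H19, was chosen by its CPM values in the injected hearts, where its level had been seen to change. The values of H19 in the injected hearts are therefore a description and carry no test. All 10 were found, among 15667 genes listed for the uninjected hearts and 15327 for the injected hearts, and all 10 passed the filter on low values in both, more than 1 CPM (the authors' read counts scaled to library size) in 4 of the 8 uninjected and 8 of the 16 injected libraries.

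RNA came from the heart apex by the labels, or the ventricles by the methods, of mice at postnatal day 7.5, with 4 hearts in each of 6 groups. Xinβ KO mice carry a germline replacement of part of Xirp2, the gene for the intercalated disc protein Xinβ, with a LacZ-Neo cassette. The uninjected groups were Xinβ KO and WT, written KO and WT below. The injected groups were KO/GFP, WT/GFP, KO/YAP and WT/YAP, whose pups received AAV9 on postnatal day 1 carrying either GFP or Flag-tagged human YAP S127A, an active form of the Hippo pathway's co-activator. In both vectors the chicken cardiac troponin T promoter limits the transgene to cardiomyocytes. All 4 injected groups share the virus and the injection. By the methods, controls were littermates of the KO mice. The uninjected libraries were read in 50 bp single ends and the injected libraries in 150 bp pairs, in separate runs, so the 2 sets were never tested against each other. In bulk tissue, fewer cells of a type and less RNA per cell cannot be told apart.

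Xirp2 was at 0.292 to 0.692 CPM in the KO hearts and 106 to 168 CPM in WT hearts, and at 0 to 0.972 CPM in injected KO hearts. In injected WT hearts it was at 56.0 to 149 CPM. The libraries held 20490875 to 31154155 reads on genes in uninjected hearts and 15015038 to 19444404 in injected hearts. Cardiomyocyte markers were abundant in every library. The summed fibroblast markers (7 of 7 listed) were at 2298 to 3654 CPM in KO and 4815 to 5017 CPM in WT hearts. They were at 1868 to 3352 CPM in KO/GFP, 4327 to 5111 CPM in WT/GFP, 4677 to 5636 CPM in KO/YAP and 4374 to 4863 CPM in WT/YAP hearts. KO replicate 1 stood apart from the rest. Its log2 deviation from the other libraries fell with exon length by a slope of -0.25, against -0.00 to 0.06 in the other uninjected libraries. Peg3 and Igf2r, with 13324 and 9308 bp of exon, had their lowest KO levels in it, and Meg3, with 18089 bp, did not. Values of the members with each library corrected for this trend are given where the correction changed a call. KO/GFP replicate 2 had the lowest slope among injected libraries (-0.11). KO replicate 4 had a summed level of 6 proliferation markers of 463 CPM, against 49.4 to 98 CPM in the other KO hearts and 350.4 to 469 CPM in WT hearts. The methods describe each group as a mixture of males and females. The Y-linked Ddx3y was at 39.5 to 49.6 CPM in all 4 uninjected WT hearts and at 3.68 to 56.2 CPM in KO hearts. Some injected libraries held both a Y-linked and an X-inactivation transcript, among them WT/YAP replicate 3 with Ddx3y at 8.61 CPM and Xist at 747 CPM, and leaving out that library changed no count of members called.

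The promoters of Peg3, Plagl1 and Mest are shown because these are the 3 members that passed a test in the comparisons below. RefSeq (GRCm38.p6) gave 16 promoters for 9 of the 10 members, each running from 250 bases before to 50 bases after a transcription start. Capitals mark the 6 letters GGAATG or, on the other strand, CATTCC, the core of the site of TEAD factors, through which YAP acts on DNA.
Peg3, chr7:6730370-6730669, minus strand: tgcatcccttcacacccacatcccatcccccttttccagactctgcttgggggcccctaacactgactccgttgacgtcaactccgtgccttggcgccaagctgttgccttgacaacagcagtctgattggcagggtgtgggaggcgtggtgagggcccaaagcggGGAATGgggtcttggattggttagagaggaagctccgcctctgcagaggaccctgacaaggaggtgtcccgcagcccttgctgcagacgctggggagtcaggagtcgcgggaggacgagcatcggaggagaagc
Plagl1, chr10:13090582-13090881, plus strand: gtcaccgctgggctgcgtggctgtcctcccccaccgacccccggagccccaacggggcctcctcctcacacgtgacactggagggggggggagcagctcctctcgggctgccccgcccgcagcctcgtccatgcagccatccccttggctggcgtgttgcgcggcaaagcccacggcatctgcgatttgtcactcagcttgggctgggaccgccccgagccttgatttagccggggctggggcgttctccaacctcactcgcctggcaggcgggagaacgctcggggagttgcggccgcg
Mest, chr6:30737800-30738099, plus strand: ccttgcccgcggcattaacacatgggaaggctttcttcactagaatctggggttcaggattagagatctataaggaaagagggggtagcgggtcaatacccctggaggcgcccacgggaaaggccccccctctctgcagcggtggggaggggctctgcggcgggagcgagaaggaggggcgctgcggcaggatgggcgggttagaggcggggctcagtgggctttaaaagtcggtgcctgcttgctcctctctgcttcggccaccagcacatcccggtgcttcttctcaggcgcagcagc

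The letters were in 4 of the 16 member promoters, 3 of Igf2 and the single 1 of Peg3, where they start at base 167. Of all 32851 promoters in the table, 14.7% held them. Neither Plagl1 nor Mest held them in these windows, which is a description of the letters alone. The Peg3, Plagl1 and Mest windows held 13, 26 and 17 CpG dinucleotides, the sites of the methylation that marks parental alleles, against a median of 7 over all promoters. Of all promoters, 62.1%, 83.1% and 68.6% held fewer than these 3 windows. The Mest window is 1 of 3 in the table for this gene, which held 8, 17 and 17.

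Some members also carry miRNAs inside their transcripts. They are shown for H19 and Mest because H19 prompted the list and Mest passed a test, with the seed (bases 2 to 8) in capitals.
mmu-miR-675-5p (H19): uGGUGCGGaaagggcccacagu
mmu-miR-675-3p (H19): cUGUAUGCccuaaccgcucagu
mmu-miR-335-5p (Mest): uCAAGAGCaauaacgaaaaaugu
mmu-miR-335-3p (Mest): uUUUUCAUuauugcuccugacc
The 4 seeds differ from each other. The poly(A) libraries measured the host transcripts and gave no value for the mature miRNAs.

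Among the uninjected hearts, Mest fell in KO, and Peg3 was higher and Meg3 lower in every KO heart than in any WT heart without passing the adjusted test. Of the 10 members, 1 was called at an adjusted p under 0.05 (limma with Benjamini-Hochberg adjustment over 15598 genes), where 6.69% of all tested genes were called, 3.23% higher and 3.46% lower. The members' median log2 fold change was -0.25, against 0.00 over all genes. For 3 of the 10 the groups did not overlap, against 16.4% of all genes.

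Mest (chromosome 6, 30723547 to 30748465, plus strand of GRCm38), a hydrolase-fold protein linked to growth and fat cell size, was at 90.3, 75.5, 60.4 and 166 CPM in KO replicates 1 to 4. It was at 288, 238, 252 and 256 CPM in WT. All KO hearts lay below all WT hearts, and KO replicate 4 lay closest to them. The log2 fold change was -1.49 (standard error 0.27, adjusted p = 0.0131, limma). The call was lost without WT replicate 1 (adjusted p = 0.056) or WT replicate 3 (adjusted p = 0.051), with log2 fold changes of -1.44 and -1.50.

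Mest shares 912 bp with Copg2, a coat protein gene on the opposite strand, and the strand setting of the counting is not given in the sources used here, so reads of the pair may not have been kept apart. Copg2 was at 50.0 to 60.4 CPM in KO and 59.7 to 74.1 CPM in WT hearts. In the injected hearts it ran from 78.1 CPM in KO/GFP replicate 4 to 262 CPM in WT/YAP replicate 1, and these were also the libraries with the lowest and the highest Mest. The part of the overlap in the Mest values was not tested.

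**Figure D1:**
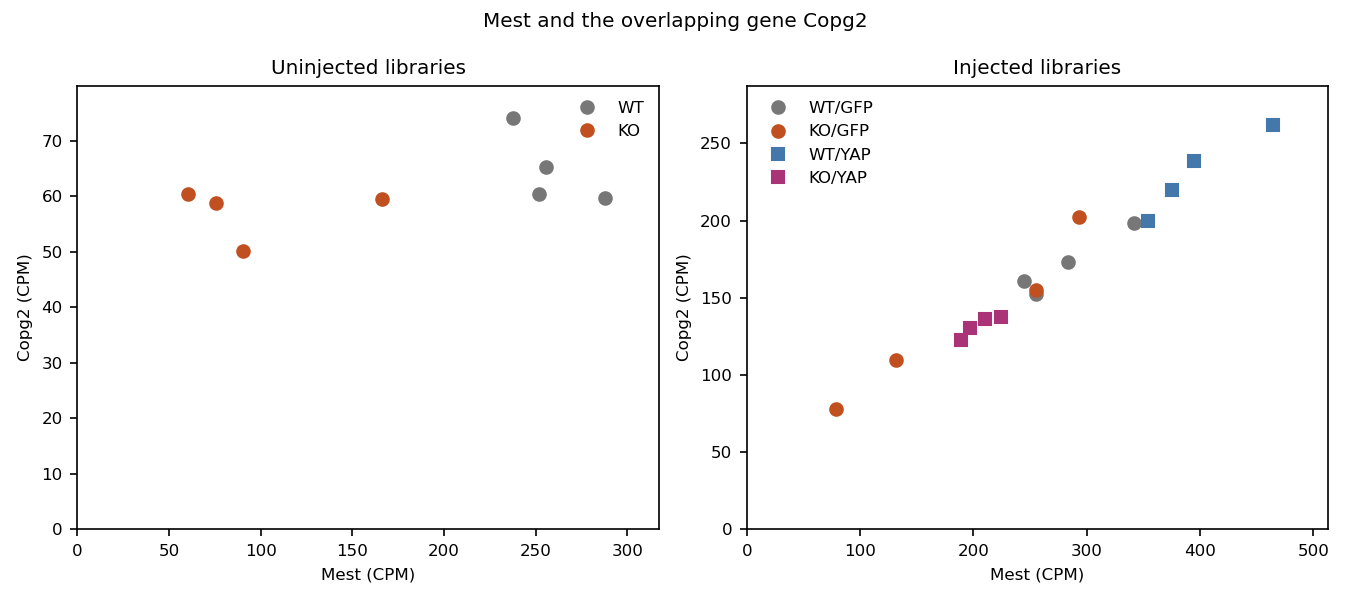
Each point is a library, with Mest on the horizontal axis and Copg2 on the vertical axis, both in CPM, for 8 uninjected libraries (left) and 16 injected libraries (right). Copg2 stayed between 50.0 and 74.1 CPM in the uninjected libraries and ran from 78.1 to 262 CPM in the injected ones, where libraries with more Mest held more Copg2.

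Peg3 (chromosome 7, 6703892 to 6730431, minus strand), which encodes a zinc finger protein tied to growth and nursing behaviour, was at 144, 382.6, 523 and 238 CPM in KO replicates 1 to 4. It was at 137, 141, 121 and 135 CPM in WT. The KO hearts all lay above the WT hearts, replicate 1 by a narrow margin. On the log2 scale the fold change was 1.11 (standard error 0.34, adjusted p = 0.0853, limma), and without KO replicate 1 it was 1.44 (adjusted p = 0.011). With each library corrected for the trend on exon length, a choice made after the data were seen, it was 1.24 (adjusted p = 0.017).

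**Figure D2:**
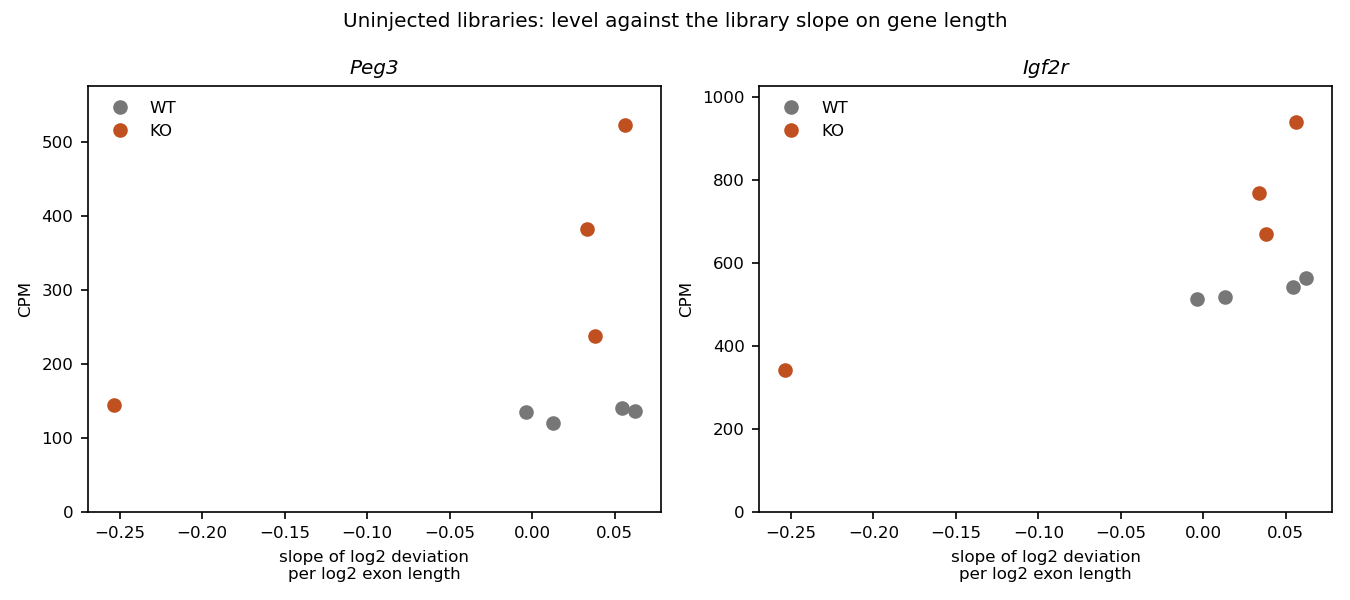
Each point is an uninjected library, with its slope of log2 deviation on log2 exon length on the horizontal axis and its level in CPM on the vertical axis, for Peg3 (left) and Igf2r (right). KO replicate 1, at -0.25, had the lowest level of the KO hearts for both genes, 144 CPM for Peg3 and 341 CPM for Igf2r.

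Plagl1 (chromosome 10, 13060504 to 13131694, plus strand), a zinc finger factor known to act on other imprinted genes, was at 60.7, 130.1, 155 and 137 CPM in KO hearts. In WT hearts it was at 66.0, 95.6, 75.3 and 46.4 CPM. KO replicates 2 to 4 lay above all WT hearts and replicate 1 lay among them. The log2 fold change was 0.72 (standard error 0.31, adjusted p = 0.205), and 1.02 (adjusted p = 0.025) without KO replicate 1, both from limma.

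Among the ligands and receptors of the growth axis, Igf2 (insulin-like growth factor 2, chromosome 7, 142650766 to 142666816, minus strand) was at 553, 601, 644 and 269.9 CPM in KO and 540.1, 557, 592 and 672 CPM in WT hearts. The groups overlapped, with KO replicate 4 below the rest, and the log2 fold change was -0.26 (adjusted p = 0.604, limma). Igf2r (chromosome 17, 12682406 to 12769664, minus strand), the receptor that clears IGF2, was at 341, 769, 939 and 671 CPM in KO and 564, 541, 518 and 512 CPM in WT hearts. Replicates 2 to 4 of KO lay above all WT hearts and replicate 1 below them, with a log2 fold change of 0.26 (adjusted p = 0.634) that became 0.56 (adjusted p = 0.021) without replicate 1, in limma. Grb10 (chromosome 11, 11930508 to 12038683, minus strand), an adaptor that dampens insulin and IGF1 receptor signalling, spanned 152 to 301 CPM in KO and 197 to 347.6 CPM in WT. Grb10 differed by -0.23 on the log2 scale (adjusted p = 0.612, limma).

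H19 (chromosome 7, 142575529 to 142578143, minus strand), the noncoding neighbour of Igf2 and host of miR-675, was at 402, 173, 234.7 and 494 CPM in KO and 173, 291, 394 and 216 CPM in WT hearts. The groups overlapped across most of their range (log2 fold change 0.23, adjusted p = 0.754, limma). Without KO replicate 4 the log2 fold change was -0.01, so its direction rested on that heart.

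Dlk1 (chromosome 12, 109452823 to 109463336, plus strand), a membrane protein of the Notch ligand type made by immature cells, was at 10.3, 2.11, 4.196 and 7.64 CPM in KO and 12.02, 9.55, 10.6 and 12.2 CPM in WT hearts. KO replicate 1 alone reached into the WT range, and the log2 fold change was -0.94 (standard error 0.35, adjusted p = 0.153, limma). Without that library it was -1.22 (adjusted p = 0.044). Meg3 (chromosome 12, 109541001 to 109571726, plus strand), the long noncoding RNA of the same domain, was at 97.4, 84.0, 97.4 and 90.4 CPM in KO and 111, 116, 110.1 and 113 CPM in WT hearts. The 2 groups did not overlap, and the spread within each was small. The log2 fold change of Meg3 was -0.29 (standard error 0.09, adjusted p = 0.0806, limma). Ndn (chromosome 7, 62346569 to 62350262, plus strand), a MAGE family protein that restrains the cell cycle, spanned 13.6 to 25.6 CPM in KO and 21.1 to 24.9 CPM in WT. Its log2 fold change was -0.27 (adjusted p = 0.426, limma).

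The count therefore depended on single hearts. It was 6 of 10 without KO replicate 1 (Dlk1, Meg3, Peg3, Plagl1, Mest and Igf2r), where 10.9% of all genes were called. It was 0 of 10 without WT replicate 1 or WT replicate 3, where 2.05% and 2.12% were called. The summed fibroblast markers and the summed endothelial markers (5 of 5 listed, 968 to 1248 CPM in KO and 1357 to 1492 CPM in WT) were lower in every KO than in any WT heart, as Mest was. By single genes, 4 of 7 fibroblast and 1 of 5 endothelial markers were called lower, against 3.46% of all genes. Emcn and Pecam1 of the endothelial list were at 0.19 and 0.07 on the log2 scale, and neither was called. Higher in every KO heart, as Peg3 was, was the single listed epicardial marker Wt1 (11.4 to 18.4 against 7.82 to 10.3 CPM). So was the single listed brown fat marker Cidea (37.8 to 67.7 against 29.2 to 34.7 CPM), and neither was called. Of 7 cardiomyocyte markers, 2 were called higher and 5 were not called, against 3.23% of all genes called higher. The 2 were Tnnt2 (log2 fold change 0.60, adjusted p = 0.0455) and Pln (1.38, adjusted p = 0.0428), both in limma. Tnnt2, Pln and Myh6 lay higher in every KO heart, while the summed cardiomyocyte markers overlapped. The part of these markers in the results was not tested.

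**Figure D3:**
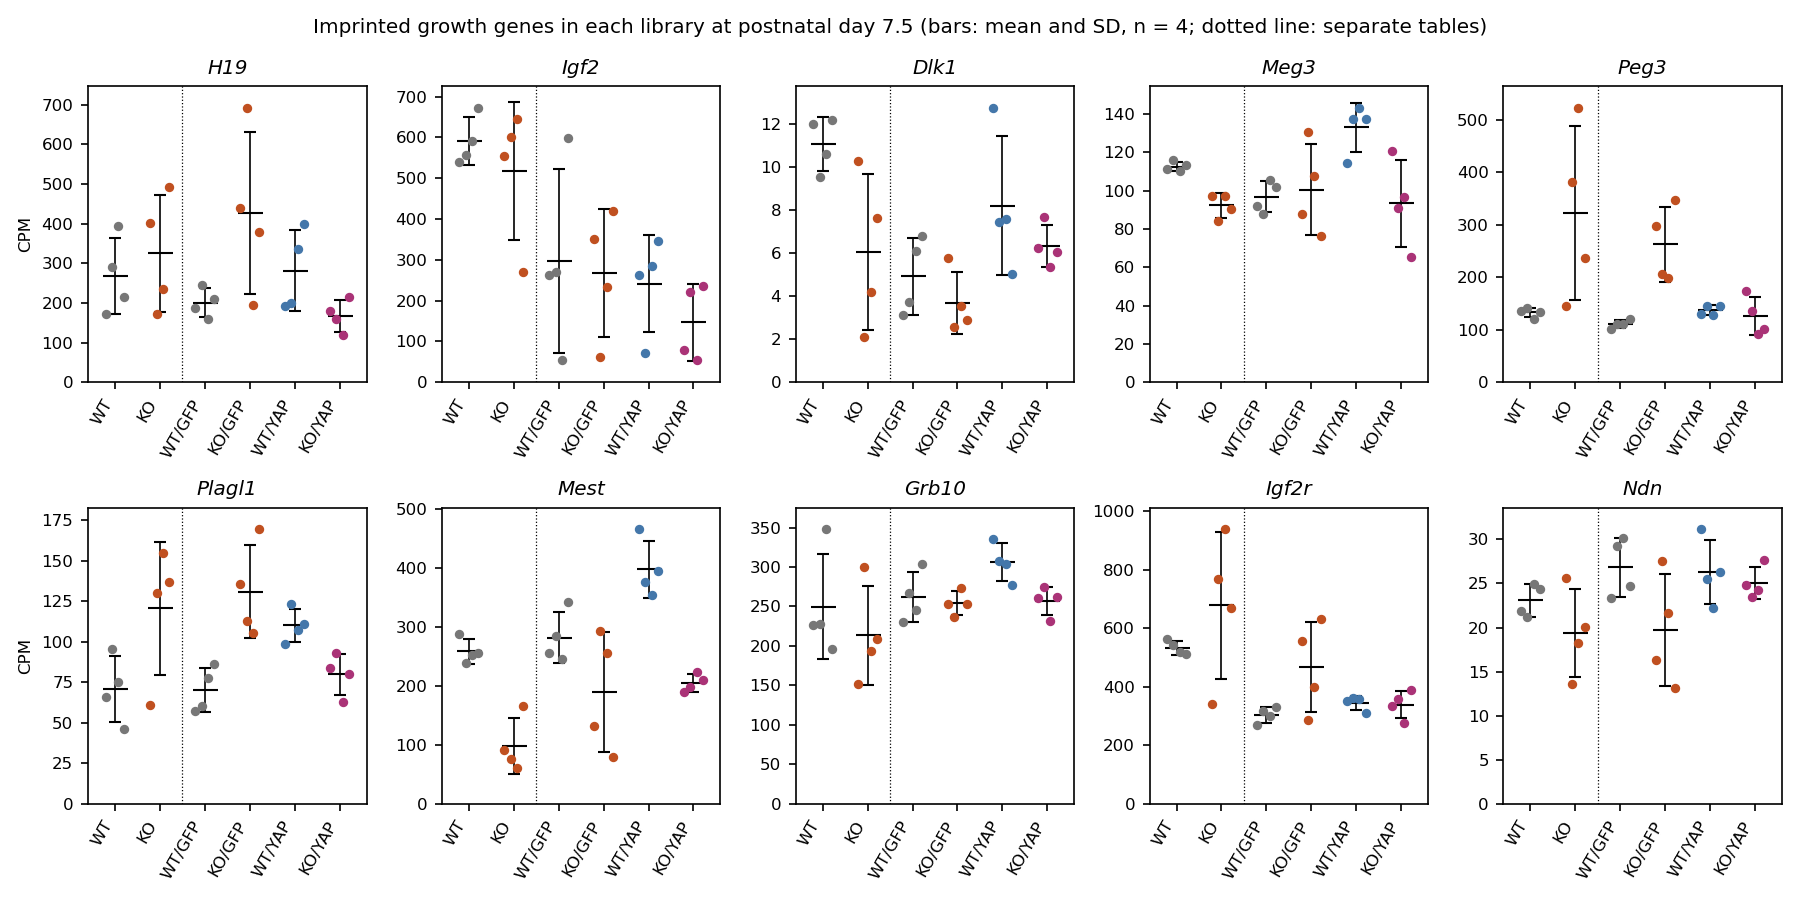
Each panel is a gene, with CPM on the vertical axis and the 6 groups on the horizontal axis. Points are libraries, in the order of their replicate numbers from left to right, bars are the mean and SD of 4 hearts, and the dotted line separates the 2 sets of libraries. Mest sits at 60.4 to 166 CPM in uninjected KO hearts, below 238 to 288 CPM in WT, and Peg3 is high in KO and KO/GFP hearts.

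In GFP-injected hearts Peg3 and Plagl1 rose in KO. Of the 9 members tested, 2 were called, both higher, where 13.7% of all 14597 genes were called, 6.43% higher and 7.22% lower. The median log2 fold change of the 9 was -0.03, against -0.01 over all genes, and for 2 of the 9 the groups did not overlap, against 15.3% of all genes. Of 7 cardiomyocyte markers, 2 were called higher in KO/GFP and 5 were not called. The 2 were Tnnt2 (log2 fold change 0.65, adjusted p = 0.00132) and Pln (0.53, adjusted p = 0.00219), both in limma. Skeletal muscle markers (2 of 6 listed, summed at 2.368 to 4.446 against 1.785 to 2.338 CPM) were higher in every KO/GFP heart. Beside the fibroblast markers, other marker sums were lower in every KO/GFP than in any WT/GFP heart. They were those of endothelial cells (5 of 5, 1091 to 1157 against 1232 to 1382 CPM), mural cells (5 of 5, 1216 to 1537 against 1666 to 1829 CPM), macrophages (5 of 5, 45.7 to 65.7 against 79.3 to 128 CPM), red cells (3 of 3, 731 to 1765 against 1968 to 5133 CPM) and proliferation (6 of 6, 49.1 to 292 against 339 to 433 CPM). By single genes, 5 of 7 fibroblast, 2 of 5 endothelial, 1 of 5 mural, 4 of 5 macrophage, 3 of 3 red cell and 5 of 6 proliferation markers were called lower. The endothelial markers Emcn and Pecam1 were at 0.34 and -0.02 on the log2 scale. The fibroblast markers Pdgfra and Tcf21 were at -0.03 and -0.05, and none of these 4 genes was called. The part of all these markers in the results of the members was not tested.

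Peg3 was at 298, 207, 199.2 and 347.6 CPM in the KO/GFP hearts, against 101, 110.3, 111 and 120.1 CPM in WT/GFP. Each KO/GFP heart lay well above the WT/GFP range. Peg3 rose by 1.20 on the log2 scale (standard error 0.18, adjusted p = 0.000591, limma). Plagl1 was at 136, 113, 105 and 169 CPM in KO/GFP and at 57.6, 60.5, 77.4 and 86.2 CPM in WT/GFP. No KO/GFP heart fell within the WT/GFP range. Its log2 fold change was 0.88 (standard error 0.16, adjusted p = 0.00197, limma).

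Igf2r stood at the threshold. It was at 555, 288, 400.2 and 632 CPM in KO/GFP and at 269.7, 316, 300.4 and 332 CPM in WT/GFP hearts. Replicate 2 of KO/GFP had the lowest slope on exon length, and it alone in its group held Xist at a high level (867 CPM, against 1.93 to 15.5 CPM) and Ddx3y near 0 (0.588 CPM, against 51.6 to 68.1 CPM). It lay within the WT/GFP range for Igf2r and the other KO/GFP hearts above it. The log2 fold change was 0.56 (standard error 0.18, adjusted p = 0.05 from limma, not under the threshold, nor with Ddx3y as a covariate), and it was 0.77 (adjusted p = 0.0015) without that library. It passed in 6 of 20 refits, edgeR (adjusted p = 0.03), DESeq2 (adjusted p = 0.0092) and the correction for exon length (0.57, adjusted p = 0.025) among them.

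Mest was at 131, 293, 255 and 78.5 CPM in KO/GFP and at 255, 284, 244 and 341 CPM in WT/GFP hearts. The KO/GFP hearts were split, replicates 1 and 4 below the WT/GFP range and replicates 2 and 3 inside it. The log2 fold change of -0.74 had an adjusted p of 0.0984 (limma), and was -1.01 (adjusted p = 0.013) without replicate 2. The summed proliferation markers followed the same split, at 118 and 49.1 CPM in replicates 1 and 4 and 292 and 220.0 CPM in replicates 2 and 3, against 339 to 433 CPM in WT/GFP. Replicates 1 and 4 were also the higher KO/GFP hearts for Peg3 and Plagl1. Whether these share a source was not tested.

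Ndn was at 16.3, 27.6, 21.7 and 13.1 CPM in KO/GFP and 23.3 to 30.2 CPM in WT/GFP hearts (log2 fold change -0.47, adjusted p = 0.0829, limma). It was -0.65 (adjusted p = 0.0077) without KO/GFP replicate 2. Meg3, Grb10 and Dlk1 differed by 0.03, -0.04 and -0.33 on the log2 scale, with adjusted p-values from 0.446 to 0.941 in limma. The count was 5 of 9 without KO/GFP replicate 2 (Peg3, Plagl1, Mest, Igf2r and Ndn), where 18.9% of all genes were called, and 4 of 9 without replicate 3 (all of these but Ndn), where 15.2% were.

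H19 was at 439, 692, 196.1 and 379 CPM in KO/GFP and at 188, 246, 159 and 209 CPM in WT/GFP hearts. Replicate 3 of KO/GFP lay within the WT/GFP range and the others above it, with a log2 difference of 0.96. In KO/YAP hearts H19 was at 179, 159, 118 and 215 CPM, and in WT/YAP hearts at 192, 199.3, 335 and 399 CPM. The log2 difference was -1.24 from KO/GFP to KO/YAP and 0.43 from WT/GFP to WT/YAP. In each of these pairs of groups the ranges overlapped. These values chose H19 and were not tested.

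YAP S127A was compared with GFP within KO hearts next, and both members that were high in KO/GFP were low here. The comparison shares the KO/GFP libraries with the one above. Of the 9 members tested, 2 were called, both lower, where 14.8% of all genes were called, 7.85% higher and 6.92% lower. The median of the 9 was -0.11, against 0.01 over all genes. The marker sums of fibroblasts (4677 to 5636 against 1868 to 3352 CPM), endothelial cells (1260 to 1314 against 1091 to 1157 CPM), mural cells (1826 to 2331 against 1216 to 1537 CPM), macrophages (73.0 to 107 against 45.7 to 65.7 CPM) and proliferation (298 to 339 against 49.1 to 292 CPM) were higher in every KO/YAP than in any KO/GFP heart. Single genes did not all follow these sums. Called higher were 5 of 7 fibroblast, 2 of 5 endothelial, 3 of 5 mural, 4 of 5 macrophage and 3 of 6 proliferation markers. The endothelial marker Emcn was called lower (-0.45, adjusted p = 0.036, limma). Of 7 cardiomyocyte markers, 2 were called lower and 5 were not called. The 2 were Tnnt2 (-0.62, adjusted p = 0.00169) and Pln (-0.41, adjusted p = 0.00952), both in limma. The part of all these markers in the values of the members was not tested.

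Peg3 was at 173, 136, 92.5 and 102 CPM in KO/YAP hearts, all below the 199.2 to 347.6 CPM of KO/GFP (log2 fold change -1.06, standard error 0.18, adjusted p = 0.0014, limma). Plagl1 was at 83.8, 93.3, 62.7 and 79.8 CPM, all below the 105 to 169 CPM of KO/GFP (log2 fold change -0.70, standard error 0.16, adjusted p = 0.00803, limma). For 2 of the 9 members the groups did not overlap, against 17.5% of all genes.

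Igf2r was at 335, 358, 276 and 388 CPM in KO/YAP hearts (log2 fold change -0.41 against KO/GFP, adjusted p = 0.139, limma), and at -0.62 (adjusted p = 0.0064) without KO/GFP replicate 2. Ndn was at 23.5 to 27.7 CPM (0.38, adjusted p = 0.153, limma), and at 0.56 (adjusted p = 0.02) without that library. Mest was at 189, 197, 224 and 210.01 CPM, a narrow band inside the wide KO/GFP range (0.29, adjusted p = 0.525, limma). Dlk1 was at 5.38 to 7.71 CPM against 2.55 to 5.77 CPM in KO/GFP (0.68, adjusted p = 0.0895, limma), and at 0.87 (adjusted p = 0.044) without KO/GFP replicate 1. Meg3 and Grb10 differed by -0.11 and 0.02 on the log2 scale. Without KO/GFP replicate 2 the count was 4 of 9, Peg3, Plagl1, Igf2r and Ndn, where 17.1% of all genes were called.

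**Figure D4:**
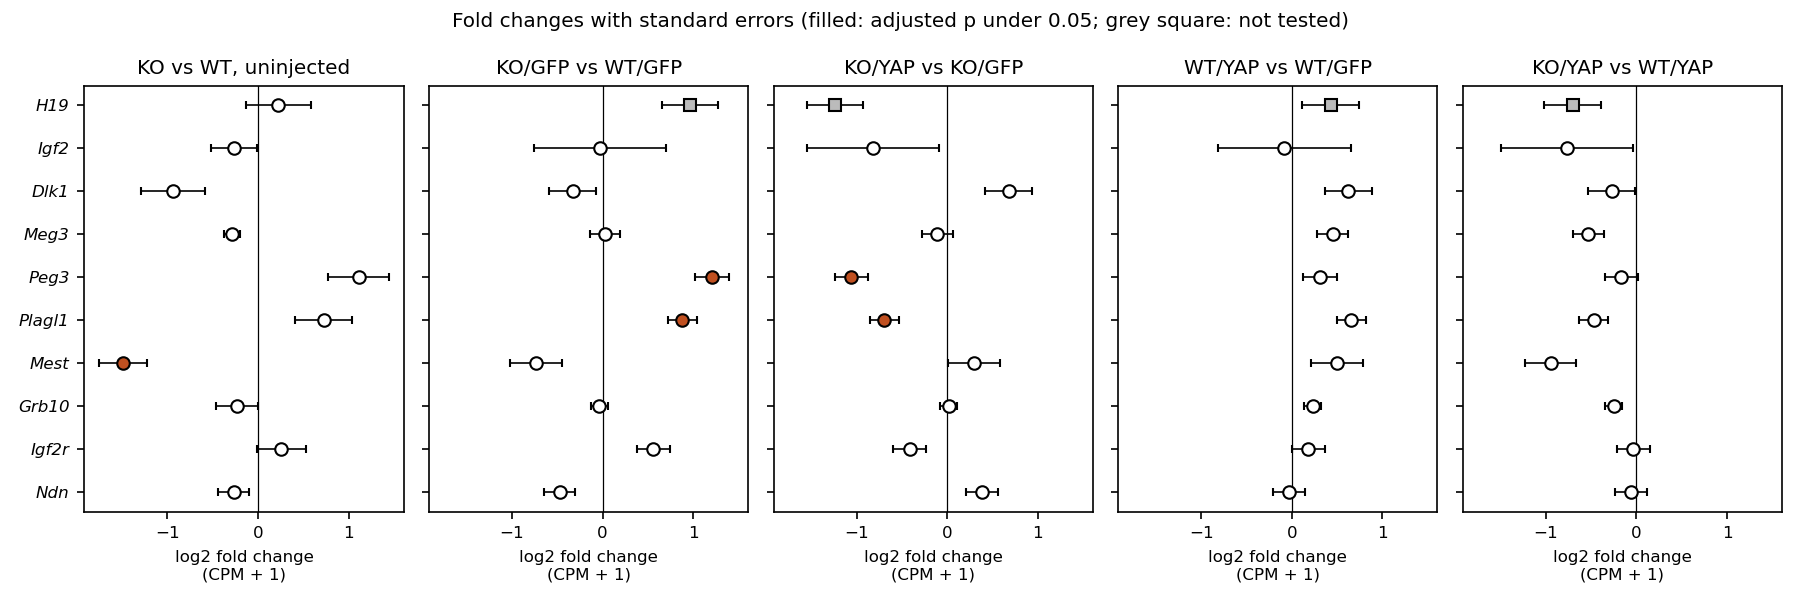
Each panel is a comparison, with the log2 fold change of CPM + 1 and its standard error on the horizontal axis and the 10 genes on the vertical axis. Filled circles passed an adjusted p of 0.05 and grey squares mark H19 where it was not tested. Peg3 lies at 1.20 in KO/GFP against WT/GFP and at -1.06 in KO/YAP against KO/GFP, 2 comparisons that share the KO/GFP hearts.

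In WT hearts YAP S127A gave no call among the members. limma called 0 of 14597 genes here (percent called 0%), edgeR's quasi-likelihood test on recovered reads 0 and DESeq2 11, none of them a member. At an unadjusted p under 0.05 limma had 1011 genes, or 6.93%. The median of the 9 members was 0.31, against -0.01 over all genes, and for 4 of the 9 the groups did not overlap, against 4.32% of all genes.

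Those 4 were all higher in WT/YAP. Plagl1 was at 99.0, 124, 107 and 111 CPM in WT/YAP against 57.6 to 86.2 CPM in WT/GFP (log2 fold change 0.66, adjusted p = 0.585, limma) and ranked 17 of 14597 genes by p-value. Mest was at 465, 376, 354 and 395 CPM against 244 to 341 CPM (0.50, adjusted p = 0.785, limma). Meg3 was at 114, 137, 143 and 137 CPM against 88.0 to 106 CPM (0.45, adjusted p = 0.703, limma). Peg3 was at 130.2, 146, 129 and 145 CPM against 101 to 120.1 CPM (0.31, adjusted p = 0.794, limma). Dlk1 and Grb10, whose groups overlapped, were at 0.62 and 0.23, both with an adjusted p of 0.703. The summed epicardial markers (3 of 3 listed) were also higher in every WT/YAP heart, at 21.05 to 27.94 against 10.93 to 19.86 CPM, and none was called. Their part in the values of these members was not tested.

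The interaction term asked whether YAP S127A acted differently in KO and WT hearts. Of the 9 members tested, 2 were called, both negative, where 7.56% of all genes were called, 3.8% positive and 3.77% negative. The YAP effect on Peg3 differed by -1.37 between the genotypes (standard error 0.26, adjusted p = 0.00584, limma) and that on Plagl1 by -1.35 (standard error 0.23, adjusted p = 0.00251). For Plagl1, every KO/YAP heart lay below every KO/GFP heart, and every WT/YAP heart above every WT/GFP heart. Igf2r and Meg3 had interaction terms of -0.60 and -0.56 with adjusted p-values of 0.168 and 0.165 in limma, and H19 had -1.67, not tested. Without KO/GFP replicate 2 the term of Igf2r was -0.81 (adjusted p = 0.0158, limma), which made 3 of 9 called, where 10.1% of all genes were. Called interactions were also found for 4 of 7 fibroblast, 3 of 5 macrophage, 2 of 5 mural and 1 of 5 endothelial markers, all positive, and for 2 of 7 cardiomyocyte markers, both negative. Their part in the terms of the members was not tested.

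Between KO and WT hearts that both received YAP S127A, 0 of 9 members and 6 of 14597 genes (0.0411%) were called by limma, with 1627 genes (11.1%) at an unadjusted p under 0.05. DESeq2 called 71 genes and edgeR 6, with no member among them. Mest did not overlap, at 189 to 224 CPM in KO/YAP and 354 to 465 CPM in WT/YAP (log2 fold change -0.95, adjusted p = 0.286, limma), and it passed when these 2 groups were fitted alone (adjusted p = 0.0072). Plagl1 (-0.47) and Grb10 (-0.25) also had groups that did not overlap, 3 of the 9 members against 9.23% of all genes. Peg3 differed by -0.17 and overlapped. Marker sums of epicardial cells (13.15 to 17.7 against 21.05 to 27.94 CPM) and red cells (1090 to 1236 against 1525 to 2272 CPM) were lower in every KO/YAP heart. The mural sum (1826 to 2331 against 1617 to 1731 CPM) was higher in every one. The part of these markers in the values of the members was not tested.

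Against WT/GFP hearts, KO/YAP hearts had 0 of 9 members called and 3 of 14597 genes (0.0206%) in limma, with 888 genes (6.08%) at an unadjusted p under 0.05. edgeR called 3 genes and DESeq2 24, with no member among them. The log2 differences were 0.15 for Peg3 and 0.19 for Plagl1. Mest was lower in every KO/YAP heart than in any WT/GFP heart (-0.44, adjusted p = 0.842, limma), the only 1 of the 9 members without overlap, against 4.45% of all genes. So were the summed proliferation markers (298.4 to 338.5 against 339.2 to 432.8 CPM) and red cell markers (1090 to 1236 against 1968 to 5133 CPM). The part of these markers in the Mest values was not tested.

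Igf2 in the injected hearts took 2 levels that crossed every group. In 5 libraries it was at 53.6 to 78.8 CPM and in the other 11 at 221 to 599 CPM. The low libraries were KO/YAP replicates 1 and 3, WT/GFP replicate 3, KO/GFP replicate 2 and WT/YAP replicate 2, so each group held at least 1. The standard error of its log2 fold changes was 0.73, the widest of the 10 members, and no comparison of Igf2 passed. Igf2 shares 16048 bp of the same strand with Gm49394, a read-through gene model, and 7124 bp with Igf2os on the opposite strand, so how reads were divided among them is uncertain. Gm49394 was listed for the injected hearts only, and Igf2os for both sets. The part of Gm49394 in the 2 levels was not tested. In uninjected hearts the lowest Igf2 value was 269.9 CPM.

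H19 and Igf2 share enhancers and are expressed from opposite alleles, as are Dlk1 and Meg3. Over the 8 uninjected hearts, with group means removed, H19 and Igf2 had a Pearson r of -0.583 (exact permutation p = 0.215, adjusted over 3 relations 0.555) and a Spearman rho of -0.524 (exact permutation p = 0.271, adjusted 0.625). Without the 2 hearts farthest from the median, r was -0.125. Dlk1 and Meg3 had r of 0.605 and rho of 0.333 in uninjected hearts (exact permutation p = 0.37 and 0.417, adjusted 0.555 and 0.625), and r was -0.744 without 2 hearts, so the relation rested on those. In the 16 injected hearts r was -0.146 and rho -0.041 (permutation p = 0.582 and 0.886, unchanged by the adjustment), and r was 0.086 without 2 hearts. All tests were two-sided, and none of the 3 relations tested passed. Over the 11 injected hearts with the higher Igf2 level, H19 and Igf2 had r of 0.454 and rho of 0.627, with r of 0.179 without 2 hearts, as a description with no test.

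The 3 genes whose log2 levels followed H19 most closely over the 16 injected libraries were Gm27483 (r = 0.903), Dgkz (0.855) and Arsa (0.848). Gm27483 lies inside H19 on the opposite strand, so its reads may be those of H19. For Igf2 they were Zc2hc1a (0.860), Bbs4 (0.776) and Map3k3 (0.772).

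Per kilobase of exon, H19 had the highest mean level and Dlk1 the lowest of the 10 in each of the 6 groups. In WT hearts the order was H19 at 109 CPM per kb, Igf2 at 103, Mest at 65.5, Igf2r at 57.4, Grb10 at 27.5, Peg3 at 9.997, Plagl1 at 9.06, Ndn at 6.25, Meg3 at 6.23 and Dlk1 at 1.96. The neighbours H19 and Igf2, Mest and Igf2r, Peg3 and Plagl1, Plagl1 and Ndn, and Ndn and Meg3 overlapped in their ranges. In KO hearts Peg3, at 24.2 CPM per kb, stood level with Mest at 24.9 and Grb10 at 23.5, and all 3 overlapped. In KO/GFP hearts Peg3 was at 19.7 and Plagl1 at 16.7 CPM per kb, and in KO/YAP hearts at 9.46 and 10.2.

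The genomic neighbours of the members were looked at as a list of 21 imprinted genes, of which 15 were tested in uninjected and 14 in injected hearts. In KO hearts 2 of 15 rose and 1 fell, against 3.23% and 3.46% of all genes. In KO/GFP hearts 4 of 14 rose and none fell, against 6.43% and 7.22%, and under YAP S127A in KO hearts 1 of 14 fell, against 6.92%. Zim1, a zinc finger gene beside Peg3, was at 16.3, 11.2, 37.0 and 13.0 CPM in KO and 7.06, 7.22, 5.84 and 6.22 CPM in WT, a log2 fold change of 1.28 (adjusted p = 0.0455, limma). It was at 12.8, 6.21, 6.73 and 15.97 CPM in KO/GFP and 1.55, 1.23, 2.23 and 2.63 CPM in WT/GFP hearts (1.90, adjusted p = 0.000362), with KO/GFP replicates 1 and 4 again the higher. In KO/YAP hearts it was at 5.53, 2.63, 4.06 and 5.89 CPM, lower than KO/GFP (log2 fold change -0.995, adjusted p = 0.0219), and its interaction term was -1.94 (adjusted p = 0.00763), all in limma. In WT/YAP hearts Zim1 was at 3.76 to 5.97 CPM, above every WT/GFP heart (0.95, adjusted p = 0.604, limma). KO/YAP hearts differed from WT/GFP hearts by 0.91 (adjusted p = 0.678, limma), and those 2 groups overlapped. For Zim1, as for Peg3, KO did not overlap with WT, nor KO/GFP with WT/GFP.

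Rian, a noncoding RNA next to Meg3, fell in KO hearts (log2 fold change -0.63, adjusted p = 0.0115, limma), at 29.3 to 38.5 CPM against 52.9 to 57.2 CPM. Snrpn, a splicing protein gene in the domain of Ndn, rose in KO (0.82, adjusted p = 0.0401) and KO/GFP hearts (0.52, adjusted p = 0.0177). Airn, the antisense RNA that overlaps Igf2r by 28354 bp, rose in KO/GFP hearts (0.47, adjusted p = 0.0266), as did Snhg14 (0.53, adjusted p = 0.0309), all in limma. Airn and Igf2r reads may not have been kept apart.

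Partners of the IGF2 pathway were a list of 7 genes, all tested. In KO hearts 1 of 7 rose, against 3.23% of all genes, and in KO/GFP hearts 3 of 7, against 6.43%. Under YAP S127A in KO hearts 3 of 7 fell, against 6.92%, and 5 of 7 had a called interaction, against 7.56%. Igf2bp2, an RNA-binding protein of Igf2 mRNA, was at 18.4 to 29.0 CPM in KO against 12.4 to 17.0 CPM in WT, a log2 fold change of 0.73 (adjusted p = 0.032, limma). It was at 18.9 to 26.8 CPM in KO/GFP and 7.99 to 13.1 CPM in WT/GFP hearts (1.09, adjusted p = 0.000412), and at 8.41 to 12.9 CPM in KO/YAP hearts (-1.10 against KO/GFP, adjusted p = 0.000345). Irs1, a docking protein of the insulin and IGF1 receptors, rose in KO/GFP (0.77, adjusted p = 0.00438) and fell from KO/GFP to KO/YAP hearts (-0.69, adjusted p = 0.00833). The receptor gene Igf1r rose in KO/GFP hearts (0.49, adjusted p = 0.00398), and Igf2bp3 fell from KO/GFP to KO/YAP hearts (-0.58, adjusted p = 0.00527), all in limma.

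**Figure D5:**
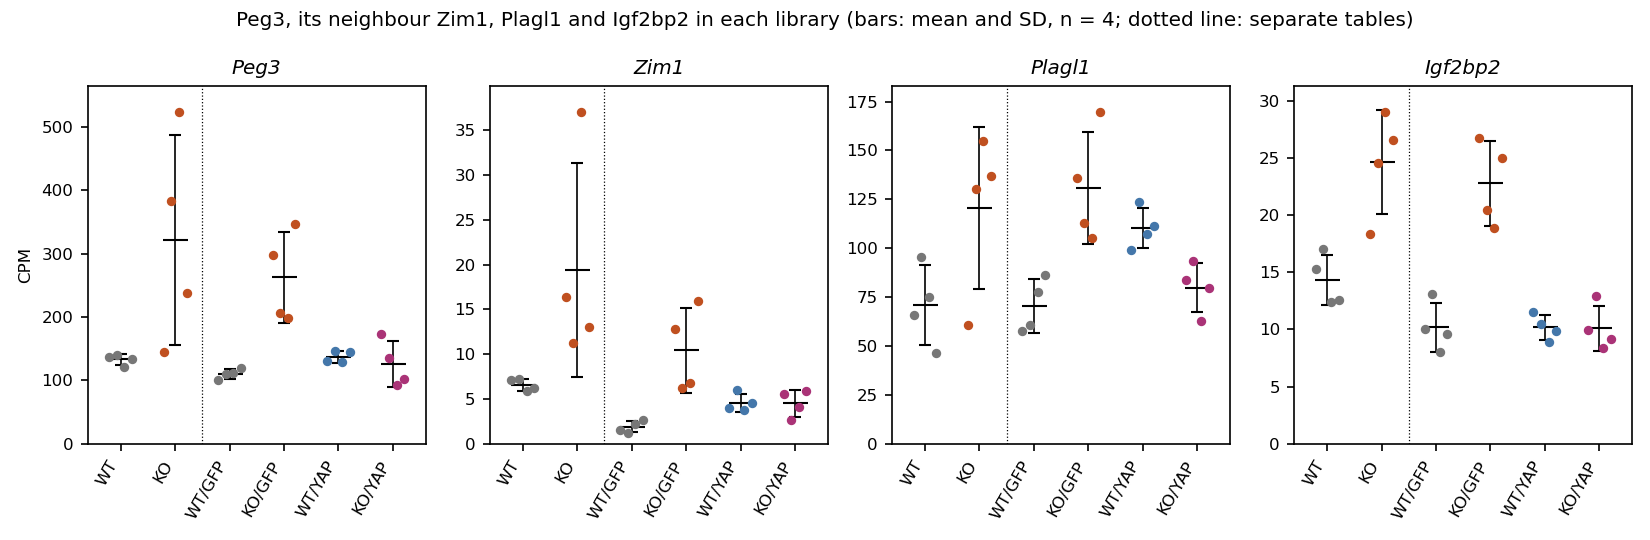
Panels show Peg3, its neighbour Zim1, Plagl1 and Igf2bp2, with CPM on the vertical axis and the 6 groups on the horizontal axis. Points are libraries and bars the mean and SD of 4 hearts. In KO/GFP hearts Peg3 (199.2 to 347.6 CPM) and Igf2bp2 (18.9 to 26.8 CPM) lie above their ranges in the other 3 injected groups.

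A list of 9 other genes known to fall after birth was set beside the members. Of 8 tested, 4 fell in KO hearts, against 3.46% of all genes, and none rose, with a median log2 fold change of -0.82 against 0.00 over all genes. In KO/GFP hearts 4 of 8 fell, against 7.22%, and under YAP S127A in KO hearts 3 of 8 rose and 1 fell, against 7.85% and 6.92%. The summed proliferation markers were also low in KO replicates 1 to 3, and their part in the fall of this list was not tested. KO replicate 4, whose proliferation sum lay in the WT range, was the highest KO heart for Mycn (8.39 CPM, against 2.40 to 3.35 CPM in the others and 14.4 to 20.5 CPM in WT). It was also the highest for E2f1 (17.2 CPM, against 6.69 to 11.1 CPM, and 19.6 to 21.8 CPM in WT). Mycn, a driver of growth in immature cells, fell in KO (log2 fold change -1.87, adjusted p = 0.00806) and KO/GFP hearts (-1.21, adjusted p = 0.0208) and rose from KO/GFP to KO/YAP hearts (1.24, adjusted p = 0.0173). Mdk, a secreted growth factor, fell in KO/GFP hearts (-1.22, adjusted p = 0.00556) and rose from KO/GFP to KO/YAP (1.17, adjusted p = 0.00681), all in limma. Sox4 fell in KO against WT (-0.82, adjusted p = 0.0366) and in KO/YAP against KO/GFP hearts (-0.65, adjusted p = 0.0243, limma).

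Of 28 further imprinted genes, 20 were tested in uninjected hearts and none was called, against 6.69% of all genes. Of the 21 tested in injected hearts, 2 fell in KO/GFP hearts, against 7.22%, Nespas (-0.74, adjusted p = 0.0252) and Dcn (-0.35, adjusted p = 0.0272, limma), and Dcn, a collagen-binding proteoglycan of fibroblasts, rose in KO/YAP against KO/GFP hearts (0.53, adjusted p = 0.0022, limma). Among 8 tested genes that maintain imprints, 1 was called in KO/GFP hearts, against 13.7% of all genes, Dnmt1 (-0.55, adjusted p = 0.021, limma), the maintenance DNA methyltransferase, which also follows the cell cycle.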

How the data were processed

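The deposited values are a normalized signal, CPM that the authors computed with edgeR 3.26.1 after Cutadapt 2.3, HISAT2 2.1.0 on GRCm38 and StringTie 1.3.4 from strand-specific poly(A) libraries of 24 hearts. Read-level coverage by StringTie can divide overlapping genes unevenly. All values were whole multiples of the worth of 1 read, so read counts were recovered for edgeR 4.0.16 and DESeq2 1.42.0. The tolerance was 0.02 for low counts and grew with the count, so for high counts the check was weak. In WT replicate 1 the smallest value stood for 3 reads.

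Groups followed the labels. log2(CPM + 1) was compared with limma 3.58.1 (mean-variance trend, Benjamini-Hochberg adjustment, threshold 0.05), over 15598 uninjected and 14597 injected genes, with all 16 injected libraries in 1 model. Fold changes are on that scale and understate those of low genes. Fisher's exact test, named in the study's methods, was not used because its plain form takes counts and not replicated CPM. How the study applied it to replicated groups is not given in the methods. No 2 libraries matched within sampling noise. p-values measure the spread between hearts, whose litters are not given. Symbols, positions and exon lengths came from GENCODE M21 (GRCm38).

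The members and lists were chosen with earlier results of these data known. All 10 members are named, and of each other list up to 4 called genes with the largest changes. Alternatives were a pseudocount of 0.1, other filters, 2 other scalings, no trend, edgeR, DESeq2, a Ddx3y covariate, a replicate block, fits of 2 groups, a correction for exon length and each library left out. The tests were checked on simulated data. R 4.3.3 and Python were used.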

Additional observations from a re-analysis of the deposited data

Results flagged for a closer look

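The effect of YAP S127A, set against GFP, differed between KO and WT hearts for 2 of the 9 members tested, by the interaction term in limma. Of all tested genes, 7.56% had a called interaction, 3.8% positive and 3.77% negative. The log2 difference was -1.37 for Peg3 (adjusted p = 0.00584), which was lower in 4 of 4 KO/YAP hearts than in any KO/GFP heart. It was -1.35 for Plagl1 (adjusted p = 0.00251), which showed the same in 4 of 4 KO/YAP hearts. Both terms passed in all 27 refits, 11 alternatives and 16 with a library left out. Their values ran from -1.54 to -1.22 for Peg3 and from -1.45 to -1.22 for Plagl1 with a library left out. Cell type markers also had called interactions, positive in sign, 4 of 7 fibroblast (Col3a1 at 1.23, adjusted p = 0.00154, limma), 3 of 5 macrophage (Csf1r at 1.40, adjusted p = 0.0018, limma), 2 of 5 mural and 1 of 5 endothelial markers. Of the cardiomyocyte markers 2 of 7 were called with a negative sign, and the part of these in the terms of Peg3 and Plagl1 was not tested. A check for single libraries far from the rest of their group found 0 in 56 groups of 4 (H19 in injected hearts left out), where chance gives about 2.8.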

How the results depend on the processing

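Members called were recounted under each alternative, and the cause of a change was not tested unless named. In uninjected hearts the 1 call became 2 with quantile normalization (Meg3, Mest; 6.53% of all genes called), 3 with DESeq2 (Meg3, Peg3, Mest; 12.5%), 3 with the Ddx3y covariate (Dlk1, Peg3, Mest; 12.4%) and 2 with the correction for exon length (Peg3, Mest; 9.44%), which was chosen after seeing the data. Without any of these, 6.69% were called. The count of members ran from 0 to 6 with 1 library left out. For KO/YAP against WT/YAP the 0 calls became 1 (Mest; 0.102% of all genes) when only the 2 groups were fitted. With a library left out, the count ran from 2 to 5 for KO/GFP against WT/GFP, from 2 to 4 for KO/YAP against KO/GFP and from 2 to 3 for the interaction. Peg3 and Plagl1 passed in both comparisons in each of the 20 refits. limma's count over all genes, with a library left out, ran from 316 (without WT replicate 1) to 2031 (without KO replicate 4) in uninjected hearts, where each of the 8 libraries moved it by over 1.5 times. For KO/GFP against WT/GFP the count of 1993 became 1258 without KO/GFP replicate 1 and 1258 without replicate 4, and rose to 2749 without replicate 2. The interaction count of 1104 fell to 625 to 729 without KO/GFP replicate 1, KO/YAP replicate 1 or 2, WT/GFP replicate 2 or WT/YAP replicate 2, 3 or 4. The count of 6 for KO/YAP against WT/YAP ran from 0 (without WT/YAP replicate 2 or 4) to 8 (without KO/YAP replicate 3), and the count of 3 for KO/YAP against WT/GFP from 0 (without WT/GFP replicate 3) to 4 (without KO/YAP replicate 2).

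Directions that turned belonged to values that passed no test. With the Ddx3y covariate, H19 was at -0.123 and Igf2 at 0.077 in uninjected hearts, and Igf2r at 0.024 for KO/YAP against WT/YAP. Meg3 in KO/GFP against WT/GFP was at -0.008 with quantiles and -0.021 with the length correction, under which Grb10 was at -0.037 for KO/YAP against KO/GFP. With a library left out, log2 values crossed 0 as follows. In uninjected hearts H19 ran from -0.014 to 0.489 and Igf2 from -0.393 to 0.024. For KO/GFP against WT/GFP, Igf2 ran from -0.695 to 0.564, Meg3 from -0.107 to 0.149 and Grb10 from -0.095 to 0.037. For KO/YAP against KO/GFP, Meg3 ran from -0.239 to 0.051, Mest from -0.066 to 0.563 and Grb10 from -0.018 to 0.065. For WT/YAP against WT/GFP, Igf2 ran from -0.746 to 0.427 and Ndn from -0.112 to 0.044. For KO/YAP against WT/YAP, Igf2r ran from -0.103 to 0.061 and Ndn from -0.135 to 0.021. For KO/YAP against WT/GFP, Meg3 ran from -0.212 to 0.079, Peg3 from -0.02 to 0.279 and Grb10 from -0.078 to 0.054. For the interaction, Dlk1 ran from -0.124 to 0.271 and Mest from -0.567 to 0.062. Pearson's r with a heart left out ran from 0.175 to 0.825 for H19 and Igf2 in the 11 injected hearts with the higher Igf2 level (not tested). For Dlk1 and Meg3 it ran from -0.211 to 0.844 in uninjected and from -0.263 to 0.00767 in injected hearts.

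Replicate numbers did not pair the samples. The correlation of same-numbered libraries ran from -0.191 to 0.098 over 4 uninjected pairs and from -0.171 to 0.137 over 24 injected pairs, and with a replicate block the members called were 1, 2, 2, 0, 0, 0 and 2 in the 7 comparisons, as without it. Over all genes the block lowered the uninjected count of 1044 by 2.71 times and the interaction count of 1104 by 1.56 times. Dlk1 was the lowest member, at 2.11 to 12.8 CPM, and whether depth limited it was not tested.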
